A study of Saccharomyces cerevisiae with 8 samples.

Results

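The comparison described here set a pool of barcoded haploid yeast mutants grown with 12 µM L-selenomethionine (SeMet) against the same pool grown without it, on 2 arrays. Log2 ratios of probes that share a gene name were averaged on each array, and the 4368 strains with a value on both arrays were kept out of 5100 strain names on the slides. Another 166 names had a value on only 1 of the arrays and 566 on neither. The pool combines the deletion collection of non-essential genes in the BY4741 background with DAmP strains, in which the mRNA of an essential gene is destabilized. BY4741 carries mutations in HIS3, LEU2, MET17 and URA3, so every strain of the pool, treated or not, lacks the O-acetyl homoserine sulfhydrylase encoded by MET17. The medium of all cultures was synthetic complete with 0.1 mM methionine and 0.1 mM cysteine, and growth lasted 10 generations. The series also holds 3 arrays of 20 µM SeMet against the untreated pool, and 3 arrays of the untreated pool after 16 h of growth against the pool at time 0. The log2 ratio of SeMet over untreated is called the relative fitness score, and that of the grown over the starting pool the growth score. A score of −1 means that a strain held 1/2 of its share in the untreated pool.

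SeMet is methionine with selenium in place of sulfur. Cells take it up through methionine permeases, charge it onto methionine tRNA and pass it along the same routes as methionine, through S-adenosylmethionine to homocysteine and, by transsulfuration, to cysteine, so that the selenium analogues of these compounds are formed as well. In a pooled screen, each strain carries a DNA tag, and the share of that tag after growth measures how well the strain grew beside all the others. A score is therefore relative to the pool, and slower growth and poorer survival cannot be told apart.

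Scores at 12 µM were close to 0 for most strains. The mean of the 2 arrays lay within 0.5 of 0 for 3745 strains (85.7%), with a median of 0.0003 and an SD over strains of 0.41. The low side was the longer one, since means ran from −4.53 to 2.65, with 37 strains below −1.5 and 6 above 1.5. In the fit of limma over the 8 arrays, with a two-sided test and Benjamini-Hochberg adjustment over the 4368 strains, 38 strains (0.870%) were lower and 6 (0.137%) were higher than 0 at an adjusted p under 0.05. Before adjustment, 290 strains (6.64%) were lower and 225 (5.15%) higher at a p under 0.05. The 2 arrays alone allow no exact test of 1 strain below p = 0.5 (two-sided sign flip), so the calls rest on the spread that limma shares over the arrays of all 3 groups. The split between low and high calls depended on scaling, because 198 strains were lower and 174 higher once every array was scaled to the same spread. With only the 12 µM arrays in the fit, 79 were lower and 81 higher. With the SeMet arrays of both concentrations and no growth array, 5 of the 38 were lower and none was higher. Without replicate 1 at 12 µM, 10 of the 38 lower strains were still called (MET13, PBI2, FPK1, YNL040W, STP22, LDB19, CTR1, IRC21, YCF1 and GOS1), and without replicate 2 only 3 of them were, namely MET13, PBI2 and DOA4. Without growth replicate 1 or 2, 19 and 18 of the 38 remained, and of the 6 higher strains 1 and 2.

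Agreement between the arrays varied from strain to strain. The SD between the 2 arrays had a median of 0.16 over all strains. In the same strains it was 0.24 between the 3 arrays at 20 µM and 0.22 between the 3 growth arrays. An SD of 2 values tends to come out smaller than one of 3, so these medians do not rank the agreement of the groups. Replicate 2 was the wider array, with an SD over strains of 0.51 against 0.41 in replicate 1. Over the strains, which share their 2 libraries and are no replicates of each other, Pearson's r between the arrays was 0.602 and Spearman's rho 0.439, and 2720 strains (62.3%) had the same sign on both. Both arrays were below −0.5 for 157 strains (3.59%) and above 0.5 for 175 (4.01%). A gap of more than 1 between the arrays was seen in 148 strains. CST6, which encodes a bZIP transcription factor, scored 1.70 on one array and −1.59 on the other. BEM2, which encodes a GTPase-activating protein for Rho1, scored 1.28 and −1.05, from a different probe on each array. These were the 2 strains with opposite scores past 1 on the arrays.

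**Figure D1:**
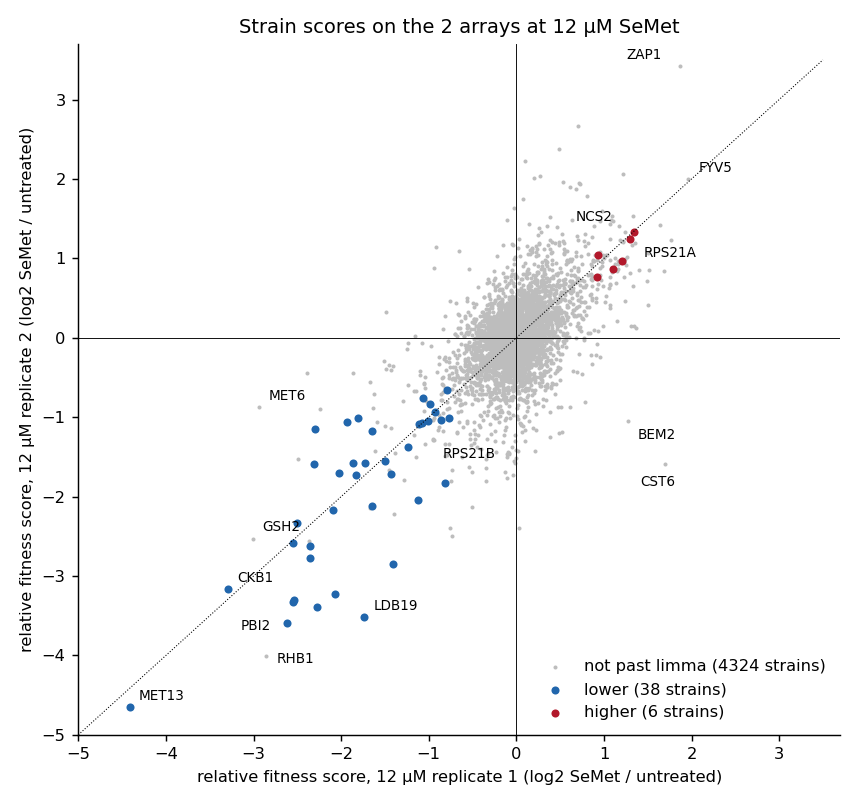
Relative fitness score (log2 SeMet over untreated) of 4368 strains on replicate 1 (horizontal axis) and replicate 2 (vertical axis) at 12 µM, with 38 lower strains in blue and 6 higher strains in red by limma. MET13 sat alone at the bottom left, at −4.41 and −4.65, while the red points lay between 0.77 and 1.34 on both arrays, inside the range of many strains that were not called.

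Among strains with values on both arrays, the lowest mean belonged to MET13 (YGL125W), the mutant of the main methylenetetrahydrofolate reductase, which supplies the methyl group for methionine synthesis. It scored −4.41 and −4.65 on the 2 arrays (mean −4.53 ± 0.17, SD, n = 2, adjusted p = 7.1e-05, limma), from 1 probe, and its growth score was 0.36 ± 0.39 (SD, n = 3). The call was kept in all 16 other settings that gave a value for it. MET6 (YER091C) encodes the methionine synthase that takes up this methyl group. Its strain scored −2.93 on replicate 1 and −0.87 on replicate 2, a gap of 2.06 between the arrays, and did not pass the test (adjusted p = 0.100). MET12, the gene of the second methylenetetrahydrofolate reductase, had values of 0.50 and −0.20 that straddled 0. In the list of sulfur amino acid, S-adenosylmethionine and transsulfuration genes, MET13 was thus the only 1 of 28 measured strains called, with a list median of 0.03 against 0.00 for all strains. Without replicate 2 at 12 µM, 2 members were lower. Both S-adenosylmethionine synthetase mutants had scores above 0 on each array that did not pass the test: SAM1 had 1.16 and 0.97 (adjusted p = 0.452) and SAM2 had 0.84 and 0.54 (adjusted p = 0.555). CYS3, the cystathionine gamma-lyase gene, was at 0.21 and −0.55. MET17, which is already mutated in the parent, had scores of −0.10 and 0.09, near 0 on both arrays.

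Mutants of the ESCRT machinery formed the group with the most calls. ESCRT-0 to ESCRT-III are complexes that gather ubiquitylated membrane proteins on endosomes and sort them into vesicles bound for the vacuole. Of 11 measured genes of these complexes, 8 were lower, none was higher and 3 did not pass the test. Over all strains, 0.870% were lower. The median score of the 11 was −1.95, against 0.00 for all strains. Both arrays were below −0.5 for 9 of the 11, against 3.59% of all strains. The ESCRT-I mutant STP22 scored −2.07 and −3.23 (mean −2.65 ± 0.82, SD, n = 2, adjusted p = 0.0106, limma), far below 0 on both arrays. Its partner SRN2, also of ESCRT-I, was at −1.93 and −1.06 (adjusted p = 0.0337). All ESCRT-II mutants were low: VPS25 at −2.55 and −2.59 (adjusted p = 0.0106), SNF8 at −2.09 and −2.16 (adjusted p = 0.0291), and VPS36 at −2.37 and −2.56, which just missed the threshold (adjusted p = 0.0543). In all 3 strains the arrays gave almost the same value. Among ESCRT-III genes, SNF7 scored −2.51 and −2.34, DID4 −1.64 and −1.18, and VPS24 −1.11 and −1.09, all of them lower. VPS27 of ESCRT-0, which binds the ubiquitylated cargo, had −2.30 and −1.59 (adjusted p = 0.0333). HSE1, its partner in ESCRT-0, and MVB12, an accessory subunit of ESCRT-I, were near 0, with means of −0.16 and −0.17. The growth scores of the group were mixed: STP22, VPS25, SNF7 and SNF8 had means between −1.51 and −1.07, whereas VPS27, SRN2, DID4 and VPS24 had means between −0.23 and 0.45. Without growth replicate 1 or growth replicate 2 the count of lower ESCRT strains was 4, and without 12 µM replicate 1 or 2 it was 1 and 0.

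Genes that act after cargo capture were split. DOA4, the ubiquitin hydrolase that strips cargo of ubiquitin before it is enclosed, scored −2.29 and −1.15 (adjusted p = 0.0270), and BRO1, which brings Doa4 to the endosome, −1.73 and −1.58 (adjusted p = 0.0135). VPS4, the ATPase that takes ESCRT-III apart, had −1.64 and −0.88 and did not pass (adjusted p = 0.185). The remaining genes of this list of 7 (DID2, VPS60, VTA1 and IST1), which regulate Vps4, had means between −0.29 and 0.36 and were not called. Of the 2 calls, 1 was left without 12 µM replicate 2 or without either of growth replicates 1 and 2, and none without 12 µM replicate 1. The Rim101 pathway, which senses alkaline pH and uses part of the ESCRT machinery for signalling, had 7 measured strains with a median of −0.62. RIM8 entered it as RIM8 and as YGL046W, a name now assigned to the same gene, with means of −0.62 and −0.48. RIM20, a Bro1-like protein that holds the Rim101 precursor on ESCRT-III, was lower, at −1.43 and −1.71 (adjusted p = 0.0185). Of these 7 strains 6 had means below 0, the exception being RIM21 at 0.03, and their growth scores were also low, with a median of −1.001 against 0.10 for all strains. The part of slow growth in these scores was not tested. Without either array of 12 µM no member of this list was called.

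**Figure D2:**
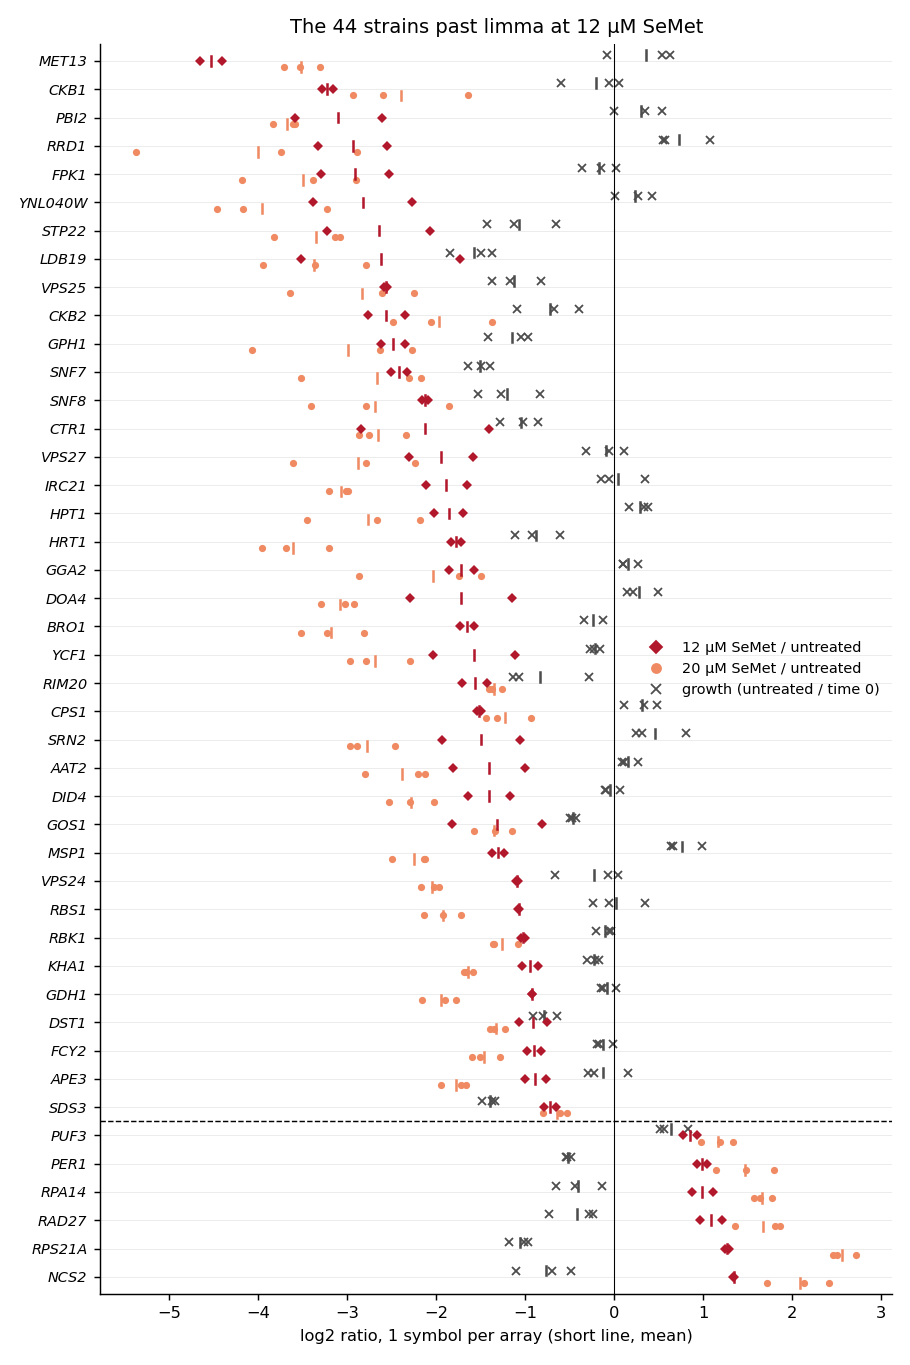
Log2 ratio on every array (1 symbol per array, short line at the mean) for the 44 strains past limma at 12 µM, with 38 lower above and 6 higher below the dashed line. At 12 µM (red diamonds) the lower strains ran from −4.53 for MET13 to −0.72 for SDS3 as means. Growth scores are crosses, and 12 of the 38 were called slow in growth, against 10.4% of all strains. The 20 µM arrays are in orange.

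Further low strains belonged to the vacuole and to traffic towards it. PBI2 (YNL015W) encodes an inhibitor of vacuolar proteinase B that also promotes vacuole fusion. Its strain scored −2.62 and −3.59 (mean −3.10 ± 0.69, SD, n = 2), and both probes were low on both arrays (adjusted p = 0.00241). With MET13 it was the only strain called in every setting. In the list of 9 vacuolar proteases and inhibitors, 3 were lower and the median was −0.43, against 0.870% and 0.00 for all strains. APE3, the vacuolar aminopeptidase Y, was lower at −0.77 and −1.01, at the edge of the threshold (adjusted p 0.05 after rounding, limma). The APE3 call was kept in 4 of 17 other settings, and in 0 of the 8 that left out 1 array. With the median over probes it was lost (adjusted p = 0.0509, limma). CPS1, the vacuolar carboxypeptidase S and a classical cargo of the ESCRT pathway, was lower, at −1.496 and −1.547 (mean −1.52, adjusted p = 0.00765). That mean hides a split between its 3 probes, of which 1 read −4.76 and −4.46 while the others lay between −0.33 and 0.43. With the median over probes in place of the mean, CPS1 was no longer called (adjusted p = 0.658). Mutants of the proteases themselves were near 0, with PEP4 at 0.01 and PRB1 at 0.08. The list count fell to 1 without either array of 12 µM.

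Sorting genes outside the ESCRT complexes were called singly. LDB19 (also known as ART1) encodes an arrestin that brings the ubiquitin ligase Rsp5 to amino acid permeases at the plasma membrane. Its strain had −1.73 and −3.52, 1 of the wider gaps among called strains (adjusted p = 0.0293), and a low growth score of −1.57. None of the other 15 measured Rsp5 adaptor strains, which hold RIM8 also as YGL046W, was called, and the median of the list was −0.03. LDB19 lost its call without 12 µM replicate 2 and without any 1 of the growth arrays. GGA2, a clathrin adaptor at the trans-Golgi, scored −1.86 and −1.58 (adjusted p = 0.0415). GOS1, a SNARE of the Golgi, scored −0.82 and −1.83 (adjusted p = 0.0421). FPK1, a kinase that activates phospholipid flippases, was among the 6 lowest strains with −2.54 and −3.30 (adjusted p = 0.00765, 1 probe), while the flippase genes DNF1 and DNF2 had means of 0.23 and 0.08. VPS9, which encodes the exchange factor for endosomal Rab proteins, had a mean of −2.01 with values of −2.50 and −1.53 and was not called (adjusted p = 0.124). No member passed among 9 genes of endosomal and vacuolar fusion, 10 of the PI3-kinase and retromer list and 23 of autophagy, whose medians were −0.12, −0.26 and −0.01. Of the V-ATPase, which acidifies the vacuole, only 1 of 19 genes had values on both arrays, so nothing can be said of that complex at 12 µM.

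Both regulatory subunits of casein kinase 2 were low. CKB1 scored −3.29 and −3.16 (mean −3.23 ± 0.09, SD, n = 2, adjusted p = 0.00566, limma) from 1 probe, and CKB2 scored −2.36 and −2.77 (mean −2.56 ± 0.29, SD, n = 2, adjusted p = 0.00765). Neither call held without replicate 1 (adjusted p = 0.0680 and 0.0705) or without replicate 2 of 12 µM (0.132 and 0.172). The catalytic subunits, looked up after these values were seen, were not low: CKA1 scored 0.34 and 0.97 and CKA2 0.15 and 0.01. On the side of phosphatases, RRD1 (YIL153W), an activator of protein phosphatase 2A and related enzymes, scored −2.55 and −3.33 (adjusted p = 0.0413, 1 probe). The growth score of this strain was 0.73, but that average also takes in probe values without a 12 µM counterpart. The probe behind the 12 µM score read 0.18, −0.11 and −0.31 on the growth arrays. TIP41, which binds the phosphatase partner Tap42 downstream of TORC1, had −1.67 and −2.14 and missed the threshold (adjusted p = 0.0553), as did the PP4 catalytic subunit PPH3 with −0.95 and −1.28 (adjusted p = 0.0723). RRD2, the paralog of RRD1, had a mean of 0.57. RRD1 was the only 1 of 19 measured genes of the PP2A, PP4 and Sit4 list to be called, the median of the list was −0.10, and none was called without growth replicate 1 or without either 12 µM array. RRD1 itself was not called without any 1 of the 3 growth arrays. RHB1, the yeast Rheb GTPase that restrains uptake of basic amino acids, had the lowest mean after MET13, at −3.43, from −2.86 and −4.01. It was not called (adjusted p = 0.125), and the spread of this strain at 20 µM, which enters the fit, was large (SD 2.21, n = 3).

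Amino acid, nitrogen and nucleotide metabolism contributed scattered strains. AAT2, the cytosolic aspartate aminotransferase, scored −1.81 and −1.01 (adjusted p = 0.0337). Aspartate leads to threonine and methionine through homoserine, and the THR4 strain, which lacks threonine synthase, had −2.40 and −0.44 and was not called (adjusted p = 0.725). Its 20 µM values, which enter the fit, were also far apart, at −4.99, −9.15 and −3.11. Only 3 of 6 genes of the threonine and homoserine list had 2 values. With 1 array left out in turn, AAT2 lost its call without either 12 µM array or any 1 growth array. It was called in 10 of 17 other settings, and not with the replicate number as a block (adjusted p = 0.117, limma). GDH1, the NADP-dependent glutamate dehydrogenase, was at −0.93 on both arrays (adjusted p = 0.0270). LEU3, the regulator of leucine genes, had −0.94 and −1.28 without a call (adjusted p = 0.0689). None of 18 amino acid permeases and none of 8 genes of the SPS amino acid sensor was called, and their medians were 0.00 and 0.22. In purine metabolism HPT1, the hypoxanthine-guanine phosphoribosyltransferase, scored −2.03 and −1.70 (adjusted p = 0.0255), and FCY2, the purine-cytosine permease, −0.98 and −0.83 (adjusted p = 0.0270). AAH1, the adenine deaminase, lay on the opposite side, at 1.77 and 1.23, with a growth score of −1.71 (adjusted p = 0.0689). The purine list of 18 had a median of 0.09.

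Copper and iron uptake showed a run of low scores with 1 call. CTR1, the high-affinity copper transporter, scored −1.41 and −2.84 (mean −2.13 ± 1.01, SD, n = 2, adjusted p = 0.0255). Copper is loaded through Ccc2 and Gef1 onto the iron oxidase Fet3, which works with the permease Ftr1. These 4 strains had means of −1.01 for CCC2, −0.94 for GEF1, −1.62 for FET3 and −1.32 for FTR1, and none passed the test (adjusted p from 0.0689 to 0.147). In FET3 the arrays were far apart, with −0.74 on replicate 1 and −2.49 on replicate 2. Over the 16 measured genes of the list the median was −0.19. No gene of the list was called without replicate 2 of 12 µM or without growth replicate 1 or 2, and 2 were called without replicate 1 of 12 µM. In the glutathione and thioredoxin systems YCF1, the vacuolar pump for glutathione conjugates, was lower with −1.12 and −2.04 (adjusted p = 0.0270). GSH2, the glutathione synthetase, scored −3.00 and −2.53 without a call (adjusted p = 0.0840), and it had a growth score of −3.88 ± 1.16 (SD, n = 3). The other 16 genes of the list, which take in the methionine sulfoxide reductases and glutaredoxins, had means from −0.80 to 0.23 and none was called. YCF1 was not called without 12 µM replicate 2 or without any 1 of the growth arrays. Among 14 superoxide dismutases, peroxiredoxins and catalases none was called and the median was −0.07. SOD1, the cytosolic superoxide dismutase, had −1.48 and −0.40 (adjusted p = 0.195). TSA1, the major peroxiredoxin, had −1.48 and 0.33 (adjusted p = 0.766).

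Ubiquitin ligases and the proteasome carried few calls. HRT1, the RING subunit of SCF ubiquitin ligases and an essential gene, scored −1.84 and −1.73 (adjusted p = 0.0102, 1 probe). It was the only call in the list of 41 ubiquitin conjugation and deubiquitination genes, which does not hold the called hydrolase DOA4 described above. UBP6, the deubiquitinase of the proteasome, had −2.24 and −0.90 (adjusted p = 0.123). The 6 ATPases of the proteasome base, RPT1 to RPT6, all had scores below 0 on both arrays, with means from −0.92 to −0.51 and a median of −0.61, but none was called. Replicate 1 gave them a median of −0.96 and replicate 2 one of −0.28. The other 33 proteasome genes had a median of −0.03. Prefoldin, a co-chaperone that hands actin and tubulin to the chaperonin, had a median of −0.83 over 5 strains, with GIM5 at −1.62 and −1.43 (adjusted p = 0.0613) and YKE2 at −1.17 and −1.22 (adjusted p = 0.0723). Growth scores of GIM5 and YKE2 were −1.54 and −1.52. No prefoldin strain was called with all arrays, whereas 1 was without 20 µM replicate 1 and 3 were without 20 µM replicate 3. MSP1, an ATPase that pulls misplaced tail-anchored proteins out of the mitochondrial outer membrane, was lower at −1.24 and −1.38 (adjusted p = 0.0106) and had the only growth score called fast among the 38, at 0.76. Among all strains 13.5% were called fast and 10.4% slow in growth, and of the 38 lower strains 12 were slow.

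The rest of the lower strains stood alone in their list or were in none. YNL040W, an uncharacterized gene, scored −2.27 and −3.39 (mean −2.83 ± 0.79, SD, n = 2, adjusted p = 0.0106). GPH1, the glycogen phosphorylase, scored −2.35 and −2.62 (adjusted p = 0.0270), while the other 17 genes of glycogen and trehalose metabolism had means between −0.25 and 0.34. IRC21, whose product has a cytochrome b5 domain, was at −1.65 and −2.12 (adjusted p = 0.00566). This strain kept its call in 16 of 17 settings. KHA1, a potassium-proton antiporter, had a mean of −0.94, and RBK1, the ribokinase, had −1.03. RBS1, linked to RNA polymerase III, had −1.08, and DST1, the elongation factor TFIIS, −0.91. SDS3, a subunit of the Rpd3L histone deacetylase, had the smallest score among the lower strains, with −0.79 and −0.66 (adjusted p 0.05 after rounding), and a growth score of −1.40. Without any single array other than 20 µM replicate 3, SDS3 was not called.

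On the high side the 6 called strains had moderate means between 0.85 and 1.34. NCS2, needed for thiolation of the wobble uridine of certain tRNAs, scored 1.34 on both arrays (adjusted p = 0.0270). RPS21A, a small ribosomal subunit protein, scored 1.29 and 1.24 (adjusted p = 0.00765, 1 probe). RAD27, the flap endonuclease of DNA replication, had 1.21 and 0.96 (adjusted p = 0.0421), and RPA14, a subunit of RNA polymerase I, 1.10 and 0.87 (adjusted p = 0.0330). PER1, which acts on GPI-anchored proteins in the endoplasmic reticulum, had 0.93 and 1.04 (adjusted p = 0.0393). PUF3, an RNA-binding protein of mRNAs for mitochondrial proteins, had 0.93 and 0.77 (adjusted p = 0.0450). All 6 were lost without either of the 12 µM arrays. Growth was called slow for 4 of the 6, and PUF3 had a growth score of 0.64. The strains with the highest means were not called. ZAP1, the zinc-responsive transcription factor, reached 1.87 and 3.42 (adjusted p = 0.133, 1 probe) and FYV5, a gene of unknown role, 1.96 and 1.99 (adjusted p = 0.0733). The FYV5 probe with values on both arrays read 2.80 and 2.81, while its other probes read 1.12 on replicate 1 alone and 1.18 on replicate 2 alone. ERG26, a sterol synthesis enzyme, had 0.70 and 2.66 (adjusted p = 0.177), NDE1, the external NADH dehydrogenase, 1.22 and 2.06 (adjusted p = 0.124), and JJJ1, a co-chaperone of late ribosome assembly, 1.64 and 1.42 (adjusted p = 0.223). With AAH1 these were all the strains above 1.5, and each of them had a growth score below −0.5. Below −0.5 in growth were also 47 of the 62 strains with a mean above 1, 26 of the 76 with a mean below −1 and 588 (13.5%) of all strains. The untreated pool is part of both ratios, and its part in these counts was not tested.

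Mutants of the cytosolic ribosome had mostly positive scores. The 57 large-subunit strains had a median of 0.70 and the 36 small-subunit strains one of 0.65, and the medians were alike on the arrays (0.70 and 0.68 for the large, 0.62 and 0.68 for the small subunit). Single strains seldom passed: none of the large subunit and RPS21A of the small one were called higher, and none were lower. Both arrays were above 0.5 for 30 and 15 of them. These 45 strains made up 25.7% of all 175 strains above 0.5 on both arrays, and 48.4% of the 93 ribosomal strains, which are 2.13% of the strains measured. RPL37A led with 1.33 and 1.53 (adjusted p = 0.394), followed by RPL13B at 0.72 and 1.93 (adjusted p = 0.437) and RPL33B at 1.09 and 1.53 (adjusted p = 0.156). The spread at 20 µM was wide in RPL37A (SD 1.605, n = 3). The large-subunit count was 5 without 20 µM replicate 3, and the small-subunit count was 2 without 20 µM replicate 1, 3 without replicate 3, and 0 without either 12 µM array. The medians of growth were −0.67 for large and −1.04 for small subunit strains, against 0.10 for all strains, and 55 of the 93 grew with a score below −0.5. Whether slow growth has a part in these scores was not tested. Some ribosomal mutants went the other way. RPS21B, the paralog of RPS21A, scored −0.95 and −1.29 (adjusted p = 0.0723), so that strains of the pair of genes for the same protein had no overlap and lay on opposite sides of 0. RPL40A, which encodes a fusion of ubiquitin with a ribosomal protein, had −0.83 and −0.26, and RPL21A −0.05 and −1.38 from a different probe on each array, and neither was called.

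Other steps of translation showed smaller shifts. All 11 measured strains of Elongator and of the wobble uridine thiolation pathway, which modify the same set of tRNAs, had means above 0. Their median was 0.84, and 7 were above 0.5 on both arrays. Over all 4368 strains, 2188 had a mean above 0 and 4.01% were above 0.5 on both arrays. Besides NCS2, which was called, the thiolation genes UBA4, URM1 and NCS6 had means of 1.34, 1.29 and 1.28 (adjusted p = 0.124, 0.0686 and 0.111). The Elongator subunits ELP2, ELP3, ELP4 and ELP6 had means from 0.60 to 0.97 without a call. The growth median of the list was −0.76. Without 20 µM replicate 3 the list held 4 calls, and without either 12 µM array or growth replicate 1 or 2 it held none. The 40 strains of ribosome assembly and export had a median of 0.28 and no call, led by JJJ1, ARX1 at 1.499 and 1.07 (adjusted p = 0.0553) and SLX9 at 1.68 and 0.84 (adjusted p = 0.0613). Without 20 µM replicate 1 there was 1 call in this list and without replicate 3 there were 2. The Lsm1-7-Pat1 complex and the decapping factors, which start mRNA decay, had a median of 0.28 over 15 strains. LSM1 had 1.52 and 0.85, LSM6 1.07 and 1.24, PAT1 1.21 and 0.97, and DHH1 1.23 and 0.76, none of them called (adjusted p from 0.310 to 0.423). Translation initiation and elongation factors (41 strains, median 0.07), other tRNA modification enzymes (33, median −0.02) and the mitochondrial ribosome (55, median −0.09) had no call.

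**Figure D3:**
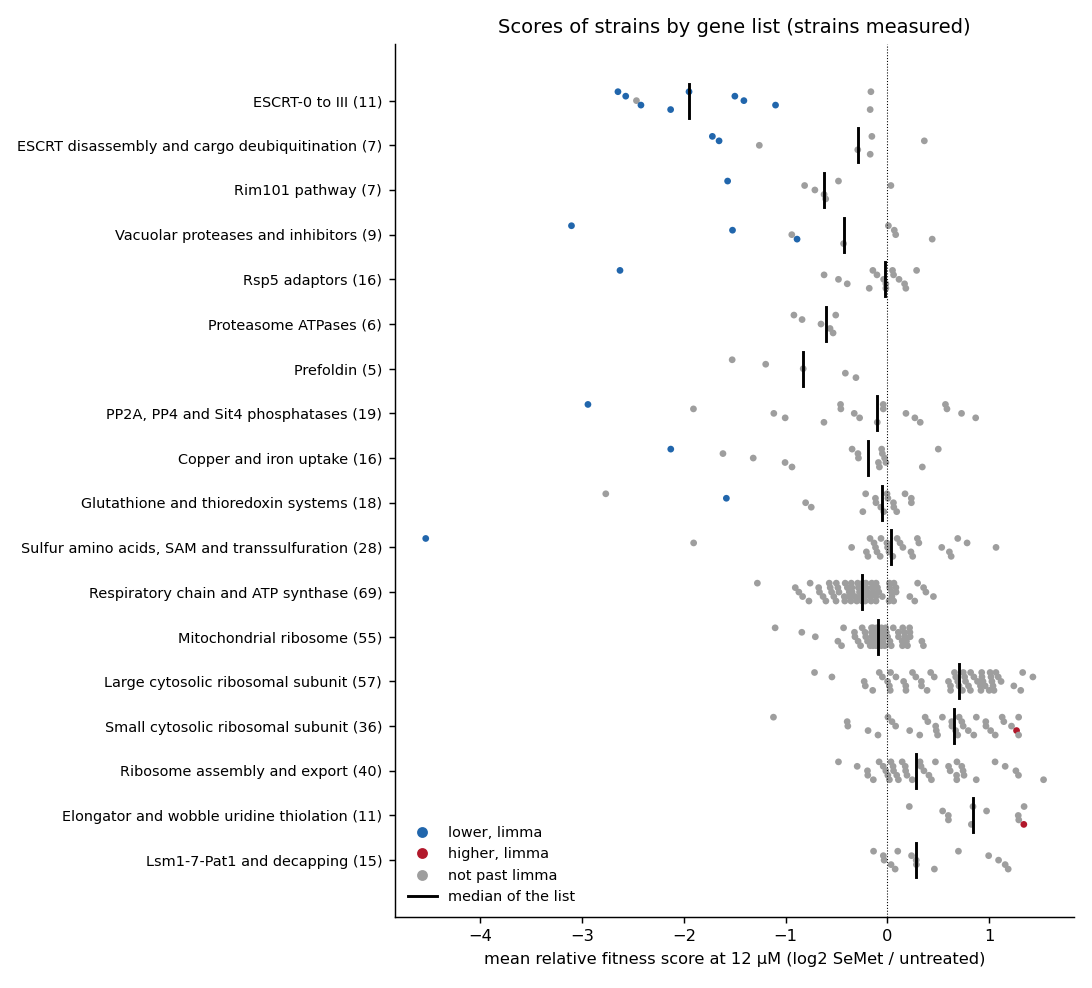
Mean relative fitness score at 12 µM of the strains in 18 gene lists (number measured in parentheses), with lower strains in blue, higher in red and others in grey, a black line at each median and a dotted line at the median of all strains. The ESCRT-0 to III strains lay apart from 0 with a median of −1.95, whereas the ribosomal lists were shifted to medians of 0.70 and 0.65 with 1 strain called.

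Mutants of the respiratory chain and ATP synthase had slightly low scores. Of 69 strains, 54 had a mean below 0, against 2180 of all 4368. The list median was −0.25, from −0.18 on replicate 1 and −0.31 on replicate 2, yet no strain of the list was called. COX17, a copper chaperone for cytochrome c oxidase, was the lowest at −0.75 and −1.81 (adjusted p = 0.193). The growth scores of this list had a median of −0.43. Stress and nuclear pathways gave little. No strain was called among 30 genes of the HOG and cell wall integrity pathways (median −0.01), 31 of homologous recombination and the DNA damage checkpoint (median 0.09), 20 of ergosterol synthesis (median −0.02), 24 of endoplasmic reticulum quality control (median 0.16), 25 cytosolic chaperones (median 0.07) or 13 of TORC1, EGO and Sch9 (median −0.16). SDS3 was the only call of 19 in the Rpd3 and COMPASS list, whose median was −0.14.

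The 20 µM arrays show where the lower concentration stood. The arrays of both concentrations are ratios to the untreated pool, and which of them share an untreated culture is not given. The SD over strains was 0.41 at 12 µM and 0.80 at 20 µM. The limma contrast of 20 against 12 µM called 0 of 4364 strains (0%), with a lowest adjusted p of 0.0526, while 562 strains had an unadjusted p under 0.05, 267 of them lower and 295 higher at 20 µM. The count was not stable to the arrays used, because 37 strains were called without 20 µM replicate 1 and 20 without replicate 3.

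Several strains near 0 at 12 µM were low at 20 µM. GWT1 and GPI16, essential genes of GPI anchor synthesis and attachment, scored 0.03 and 0.09 at 12 µM. At 20 µM they scored −2.22 ± 0.45 and −2.04 ± 0.43 (SD, n = 3), with differences of −2.24 ± 0.28 and −2.13 ± 0.27 (SE, adjusted p = 0.0526 each, limma). SDA1, needed for export of the large ribosomal subunit, went from 0.03 to −2.47 (adjusted p = 0.0526). PPQ1, a protein phosphatase gene, went from −0.12 to −1.41 (adjusted p = 0.0526). HRT1, already lower at 12 µM, went from −1.78 to −3.62 (adjusted p = 0.0615). In each of these 5 strains no array of 12 µM overlapped those of 20 µM. They were picked by the p of this difference, so the gap is no further support for it. On the high side RPS21A was at 1.27 and 2.56, ARX1 at 1.29 and 3.28, RPS0A at 1.01 and 2.83, RPS10B at 0.70 and 2.27, and ECM30, a gene of unknown role, at 0.69 and 2.11 (adjusted p from 0.0526 to 0.0615). These 10 strains are the 5 with the smallest p of the difference in each direction, and of them HRT1 and RPS21A were also called at 12 µM.

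Of the 37 strains below −1.5 at 12 µM, 9 had a lower mean at 12 than at 20 µM, among them MET13, MET6, CKB1 and CKB2. The 37 were picked by their low means at 12 µM, so the count of 9 is no support for a difference between the concentrations. MET13 averaged −4.53 at 12 µM and −3.52 ± 0.20 (SD, n = 3) at 20 µM, with no overlap between the arrays and a difference of 1.02 ± 0.25 (SE, adjusted p = 0.137, limma). MET6 averaged −1.90 at 12 µM and −0.24 ± 0.41 (SD, n = 3) at 20 µM, with a difference of 1.67 ± 0.54 (SE, adjusted p = 0.238). CKB1 and CKB2 differed by 0.83 ± 0.38 and 0.59 ± 0.35 (SE) in the same direction (adjusted p = 0.404 and 0.527). None of these differences passed the test.

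**Figure D4:**
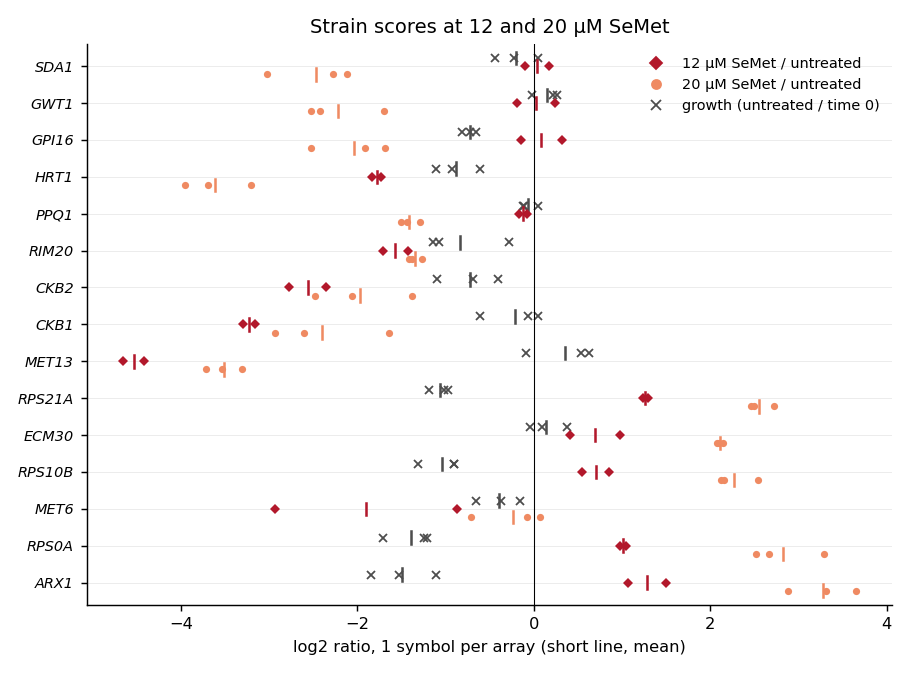
Log2 ratio on every array for the 10 strains with the smallest p of the difference between 20 and 12 µM and for MET13, MET6, CKB1, CKB2 and RIM20, with 1 symbol per array and a short line at the mean. SDA1, GWT1, GPI16 and PPQ1 lay near 0 at 12 µM (red diamonds) and at −1.29 or lower on every array of 20 µM (orange circles), while MET13 and CKB1 were lower at 12 than at 20 µM as means.

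Around the limit of 1.5 the scores ran without a break. Just inside the lower limit were AIM28 (now MIC60, of mitochondrial inner membrane organization) at −1.53, GIM5 at −1.52 and CPS1 at −1.52, and just outside it were SRN2 at −1.499, DBF2, a kinase of mitotic exit, at −1.42, and THR4 at −1.42. At the upper limit NDE1, JJJ1 and AAH1 lay inside at 1.64, 1.53 and 1.501, and OSW1, RPL37A and UBA4 outside at 1.43, 1.43 and 1.34. The strains past 1.5 with the widest gap between arrays were MET6 (2.06), ERG26 (1.96), LDB19 (1.78), FET3 (1.75) and PIN4 (1.64). PIN4, a gene of the G2/M transition, scored −0.76 and −2.40. In these 5 strains the mean stands for arrays of the same sign but quite different size.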

How the data were processed

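Dye-labelled PCR products of the strain tags of each pool were hybridized to custom Agilent slides, which the authors scanned with a GenePix scanner and analysed with GenePix Pro. For every probe the authors deposited a log2 ratio, normalized with their R scripts. Background correction and normalization method are not given in the sources used here, and the values were used as deposited. Per the labels, the SeMet pool carried Cy3 and the untreated pool Cy5 on every array with SeMet, which leaves dye and pool confounded. The direction is the authors' definition, treated over untreated.

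Of 15744 probes, 2660 without a symbol in the platform annotation were left out. Of 5100 names, 5034 matched a RefSeq symbol or locus tag and 64 a synonym. On both arrays 1152 strains had 1 probe and 3207 at least 2. The name does not tell a deletion from a DAmP allele. No brightness was used, and the number of arrays sets the precision.

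Group means were fitted by lmFit and eBayes (limma 3.58.1, R 4.3.3) to all 8 arrays, taken as 3 groups, since 2 arrays leave 1 residual degree of freedom. Means were tested against 0, and 20 against 12 µM, two-sided, with Benjamini-Hochberg adjustment over strains with 2 values at 12 µM. Tables used Python 3.11.15 and pandas 2.3.3. In simulated data of 4368 strains, 61 of 100 strains shifted by 0.75 and 95 of 100 shifted by 1.5 were called. Of the 170 calls 14 were false, and this share of 8.235% was above the adjusted p threshold of 0.05. Any untreated culture shared between the real arrays is not known, so the simulation does not give the error rate of the real calls. The labels call the arrays biological replicates but do not say which cultures share an untreated control, so p-values measure only the spread between these arrays. The 54 gene lists, the members and the tests were chosen with earlier results of these data known. Named strains are the 20 lowest and 20 highest called means of equal sign on both arrays, the 5 with the smallest p of the dose difference in each direction, the 5 past 1.5 with the widest array gap, up to 4 of each list with the smallest adjusted p, other members of lists described, and the 3 on each side of each limit. Lower strains past the lowest 20 that no list names, and ZAP1, FYV5, BEM2, CST6, CKA1 and CKA2, were named after their values were seen. Alternatives were other arrays, centring, scaling, probe summaries, strain filters, robust eBayes and a replicate block.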

Additional observations from a re-analysis of the deposited data

Results flagged for a closer look

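Of the 166 strains with a value on only 1 of the 12 µM arrays, which were outside the tests, 11 were below −1.5 and 3 above 1.5. HOM6, the homoserine dehydrogenase gene, had −5.48 on replicate 2, lower than any strain with 2 values, and −5.36 on the single 20 µM array that measured it. VPS20, an ESCRT-III gene, had −3.29, with 20 µM values of −3.53, −2.34 and −2.66. PAC10, a prefoldin gene, had −2.66, and THR1, the homoserine kinase gene, had −1.63. The other low ones were HOF1, PTC1, BDF1, NUP84, PFS1, UBR2 and DEF1, between −2.56 and −1.85. Of these, NUP84 had −2.39 at 12 µM and 0.28 on the single 20 µM array that measured it. The high ones were YDJ1 at 2.85, SHE9 at 1.97 and PGD1 at 1.59. None of these values has a replicate at 12 µM.

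Among 1461 probes without a gene symbol that had values on both 12 µM arrays, 2 were below −1.5 and 1 was above 1.5. The low ones read −3.06 and −4.20, and −2.95 and −2.94, and the high one read 2.02 and 1.12. All 3 kept their sign on the 20 µM arrays.

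ATG20, a sorting nexin gene, and GSY1, a glycogen synthase gene, had opposite signs at the concentrations on every array. Their 12 µM means were −0.27 and 0.27, both small, and neither difference passed the limma test.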

How the results depend on the processing

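Against 38 lower and 6 higher strains, the 12 µM arrays alone gave 79 and 81 (36 and 6 of them shared), the SeMet arrays alone 5 and 0, and scaling of all arrays to the same spread 198 and 174, among them all 38 and 6. Leaving out 1 array in turn gave 4 to 49 lower and 0 to 20 higher strains. Against 37 strains below −1.5 and 6 above 1.5, scaling gave 61 and 42, strains with at least 2 probes 17 and 2, a limit of 1 gave 76 and 62, and a limit of 2 gave 18 and 1. Leaving out a 12 µM array gave 38 to 52 below and 8 to 20 above. Against 0 calls for the difference of 20 and 12 µM, scaling gave 8 lower and 16 higher at 20 µM, at least 2 probes 4 lower, robust eBayes 4 lower and 1 higher, and leaving out 1 array 0 to 9 lower and 0 to 28 higher. Centring, the median over probes, robust eBayes and strains with 1 array kept the counts against 0 within 1.5 times. No strain was called in the opposite direction in any of these settings. The replicate number as a block gave 20 lower strains, all shared, and 7 higher, of which 1 was shared. The labels do not say that a number marks a pair, and same-numbered 12 and 20 µM arrays deviated in opposite directions across strains (r = −0.15 and −0.273). With 2 arrays of 1 dye orientation, a dye effect cannot be told apart from an effect of SeMet.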
